A study of Mus musculus with 82 samples.

Results

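CDX2 peaks were called over 1498 regions of the mouse genome in stembryos at both 96 h and 120 h after aggregation. These shared regions were chosen by their CDX2 peak calls, as the entries of the 96 h CDX2 list that overlapped an entry of the 120 h CDX2 list. They made up 33.3% of the 4501 regions of the 96 h list, and 1501 of the 2272 regions at 120 h (66.1%) overlapped one of them. Of the 5272 CDX2 regions of both lists, 3003 were in the 96 h list only and 771 in the 120 h list only. Stembryos are aggregates of mouse embryonic stem (mES) cells cultured as a model of the embryonic trunk and tail, and the Wnt agonist Chiron was present in the medium from 48 h to 72 h.

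CDX2 is a homeodomain transcription factor of the caudal family. It is known for its role in posterior axis elongation and in the activation of the trunk Hox genes, and it binds an AT-rich sequence with the core ATAAA. H3K27ac is a histone mark of active promoters and enhancers. NIPBL loads cohesin, the ring complex that extrudes chromatin loops, RAD21 is a subunit of that ring, and extrusion stalls at sites bound by CTCF, a zinc-finger protein.

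CDX2 was profiled in wild-type (wt) stembryos at 72 h, 96 h and 120 h, with 1 library at each stage. The shared regions were compared with the called regions of 21 H3K27ac, 19 RAD21, 8 NIPBL, 8 RNA polymerase II (PolII), 8 H3K27me3 and 7 CTCF libraries, 71 in all. Wt H3K27ac covered 9 stages from 48 h to 168 h with single libraries and had 2 further numbered libraries at 96 h and at 120 h. NIPBL and PolII were measured in wt at 8 stages from 72 h, and wt RAD21 in 16 libraries at 8 stages, none of them at 120 h. Mutant lines entered for the marks assayed in them. Del(CBS1), Del(CBS2), Del(CBS4) and Del(CBS1-2) are mES cell clones with the named CTCF sites of the HoxD cluster deleted on both alleles, and Del(CBS1-5) lacks the first 5 sites. Every library was a pool of stembryos, so that fewer cells with a mark and less of the mark per cell cannot be told apart. From 108 h on, stembryos that had elongated were collected. Each list states whether a region was called, and a share is the percentage of CDX2 regions that overlapped a called region by at least 1 base. The exact 95% interval of a share of the 1498 shared regions was at most 2.56 percentage points to each side, which covers counting over regions and not the spread between pools.

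Some libraries and regions stood apart. The wt RAD21 libraries labelled rep1 at 96 h and 108 h covered 62.8% and 71.6% of the shared regions, against 20.2% and 25% for the other two libraries at 96 h and 26.6% for the other library at 108 h. The NIPBL lists of 72 h and 84 h held 6652 and 4888 regions, and those from 96 h on 18588 to 40490. A group of 44 shared regions was called in at least 50% of the CTCF lists and at least 50% of the H3K27me3 lists, and 93 shared regions were already in the 72 h CDX2 list of 147 regions. Together these made up 94 shared regions, 12 of which had a called region in all 71 lists. The 44 had a median of 65 lists with a called region, and the 1404 shared regions outside the 94 a median of 17. By either criterion, 30 regions of the 96 h list only and 11 of the 120 h list only were set apart in the same way. Whether the regions set apart reflect binding was not tested, and the results they change are given with and without them.

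The sequences around a few summits show what the antibody enriched. Of the 12 shared regions ranked highest in both lists, 8 belonged to the group called throughout and their sequences are not shown. The other 4 were an intron of Eri3 (window chr4:117630478-117630578), a site 472 kb from the start of Adgrl2 (chr3:149462233-149462333), a site 239 kb from the start of Cxcl12 (chr6:117407280-117407380) and a site 1.53 kb from the start of Themis3 (chr17:66596098-66596198). They are shown together with the sites at Cdx2 (chr5:147309393-147309493), Cdx4 (chrX:103325971-103326071) and the HoxA cluster (chr6:52177033-52177133, chr6:52182947-52183047 and chr6:52190877-52190977). Each run holds the 96 h summit and 50 bases to each side of it on the plus strand of GRCm38 (mm10), read from the RefSeq assembly. Capitals mark NATAAA on either strand, which on the minus strand reads TTTATN.
Eri3 intron: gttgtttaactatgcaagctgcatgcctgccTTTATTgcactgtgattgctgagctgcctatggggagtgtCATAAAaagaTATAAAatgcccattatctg
Adgrl2 distal: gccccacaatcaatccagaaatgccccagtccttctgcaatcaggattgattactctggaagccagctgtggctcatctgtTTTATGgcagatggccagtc
Cxcl12 distal: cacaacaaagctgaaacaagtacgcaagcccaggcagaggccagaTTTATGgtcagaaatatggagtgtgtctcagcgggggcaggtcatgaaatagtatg
Themis3 upstream: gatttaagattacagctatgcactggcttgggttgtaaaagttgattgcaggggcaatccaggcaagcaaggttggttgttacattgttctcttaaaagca
Cdx2 flank: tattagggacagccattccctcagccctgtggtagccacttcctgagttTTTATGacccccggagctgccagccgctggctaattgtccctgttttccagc
Cdx4 intron: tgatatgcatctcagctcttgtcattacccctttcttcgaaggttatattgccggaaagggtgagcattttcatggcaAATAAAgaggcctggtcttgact
HoxA, within Hoxa3: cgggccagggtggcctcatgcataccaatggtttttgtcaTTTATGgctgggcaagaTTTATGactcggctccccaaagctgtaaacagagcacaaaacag
Hoxa3 start: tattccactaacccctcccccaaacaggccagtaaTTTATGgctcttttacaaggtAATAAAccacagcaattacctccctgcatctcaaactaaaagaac
Hoxa4 start: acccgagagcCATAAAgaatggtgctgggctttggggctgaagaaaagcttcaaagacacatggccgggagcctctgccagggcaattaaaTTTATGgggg
Eri3 held 3 of these cores, and the windows within Hoxa3 and at the starts of Hoxa3 and Hoxa4 held 2 each. Adgrl2, Cxcl12, Cdx2 and Cdx4 held 1 each. Themis3 held none.

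The values that chose the regions are given as a description. Fold enrichment, the fragments at the summit over the local background, had a median of 6.49 at 96 h in the shared regions (25th to 75th percentile 5.15 to 8.37) and of 4.63 in the regions of the 96 h list only. At 120 h it was 5.72 in the shared regions and 4.61 in the regions of the 120 h list only. With the 96 h list in 10 groups of equal size by fold enrichment, 81.8% of the highest group were shared and 10.4% of the lowest. Across the 1498 shared regions the fold enrichments of the 2 stages had a Spearman rho of 0.529, over points that share both libraries, and 965 were higher at 96 h. The summits of the 2 stages lay a median of 22 bp apart, and 93.5% lay within 100 bp. The smallest overlaps that made a region a member were 45, 57 and 63 bp, and the closest regions of 96 h that did not overlap lay 1, 165 and 191 bp from a region of 120 h. The shared regions were wider than the others at 96 h (median 311 bp against 234 bp), and a wider region overlaps a called region more readily.

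The letters around the summits set the shared regions beside the other CDX2 regions. Within 50 bases of the 96 h summit, 28.7% of the shared regions held a CDX motif, taken as GCAATAAA, GCCATAAA, GTAATAAA or GTCATAAA on either strand. The motif was found in 17.5% of the windows of the 96 h list only and in 22.7% of those of the 120 h list only. In windows of the same length 500 bases away the share was 2.07% for the shared regions. The shorter core NATAAA, which is contained in the CDX motif, was found in 61.1% of the shared regions, 47.2% and 54.9% of the others and 27.5% of the distant windows. Without the 94 regions described above, the CDX motif stood in 30% of the remaining shared regions, and among the 44 called in at least 50% of the CTCF and H3K27me3 lists it stood in 0.0%.

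Motif positions were read in the same windows. The median distance between the nearest CDX motif and the summit was 17.5 bp in the shared regions that held one. It was 21.5 bp in the regions of the 96 h list only and 19.5 bp in those of the 120 h list only. Only motifs within 50 bases of the summit were searched, so that larger distances could not be found. Clusters of cores were more frequent in the shared regions. Of these, 23.2% held 2 or more cores, against 12% and 20.1% of the regions of the 96 h list only and the 120 h list only. Among all words of 7 letters, CCATAAA had the highest rank, in 18.4% of the summit windows and 1.77% of those 500 bases away. CAATAAA (17.1% and 2.1%) and TCATAAA (15.3% and 1.87%) were also among the first 4. All share the CDX core.

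Letters of other factor families were rarer. A TCF/LEF motif (ATCAAAG), the target of the nuclear factors of Wnt signaling, was in 4.27% of the shared regions, 7.16% of the regions of the 96 h list only and 1.69% of those of the 120 h list only. A T-box motif (AGGTGTNA) followed the same order, with 2.07%, 4.56% and 0.908%. A SOX motif (ACAATGG) had the opposite order, with 3.34%, 2.06% and 5.19%. The shared regions thus lay between the early and the late regions for all 3. The HOX-PBX composite TGATTTAT was in 2.87%, 2.13% and 2.2%, the POU octamer ATGCAAAT in 0.467%, 0.966% and 0.778%, and the GATA motif AGATAAG in 0.668%, 0.766% and 0.389%. A match of letters is a description and not a site, and the sets were compared here with no test, since regions of 1 library are not replicates.

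**Figure D1:**
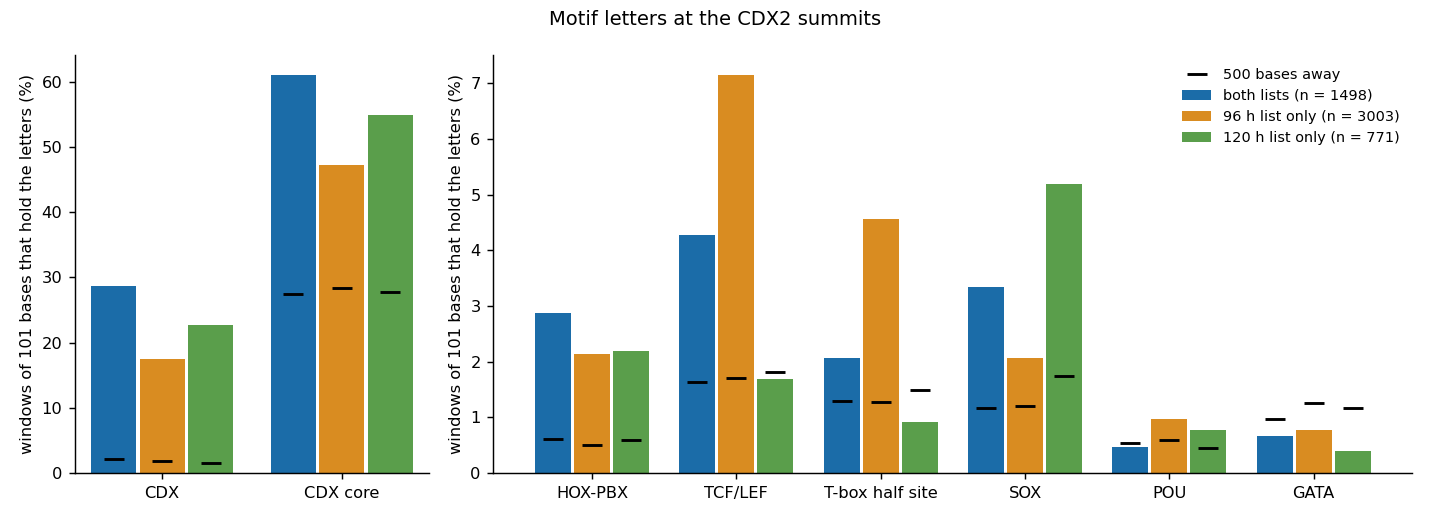
Bars give the percentage of windows of 50 bases to each side of the CDX2 summit that hold the letters of each motif, for the 3 sets of CDX2 regions, and black dashes the percentage 500 bases away. The CDX motif reaches 28.7% of the shared regions against 2.07% away from the summit.

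H3K27ac was called at fewer of the shared regions at 48 h to 84 h than at 96 h. There was no CDX2 library at 48 h or 84 h, and 93 of the regions were in the CDX2 list of 72 h. At 48 h and 72 h, 16.2% and 18.5% of the shared regions overlapped an H3K27ac region, and at 84 h 23.5%. At 96 h, when the 96 h list was made, the share was 41.4%, where the background over all 5272 CDX2 regions was 35.6%. It was 38.9% at 108 h and 31% at 120 h, where the background was 26%. The last 3 stages (132 h, 144 h and 168 h) had 31.6%, 20.9% and 31.1%. The 3 stages before 96 h thus had the lowest shares apart from 144 h, whose list was also the shortest, at 24002 regions. The share showed no monotonic relation with stage that passed the test (Spearman's rho = 0.417, exact permutation p = 0.27, adjusted over 3 relations 0.27, and Pearson's r = 0.395, p = 0.291, n = 9 stages with 1 library each). Without 48 h and 168 h, r was 0.115.

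The shared regions had H3K27ac more often than the other CDX2 regions of the same library. Over the 9 stages the share exceeded that of the regions of the 96 h list only by 3.8 percentage points on average (SD 3.07, higher at 8 of 9 stages, exact sign-flip permutation p = 0.0156, adjusted over 6 differences 0.0187). It exceeded that of the regions of the 120 h list only by 11.1 percentage points (SD 5.11, 9 of 9 stages, exact permutation p = 0.00391, adjusted 0.0117). The first difference was lost without the 94 regions (1.64 points, adjusted exact permutation p = 0.227) and turned to -0.924 points when the called region had to lie over the summit itself (exact permutation p = 0.211). Its size differed among the stages, with -1.16 points (72 h), 5.06 (96 h), 5.43 (120 h) and 7.03 (168 h). This gap had a Spearman's rho with stage of 0.767 (exact permutation p = 0.0214, adjusted 0.0321, r = 0.79, p = 0.012, n = 9), and leaving out 48 h, 72 h, 84 h, 96 h or 168 h ended that call (rho 0.667 to 0.762).

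**Figure D2:**
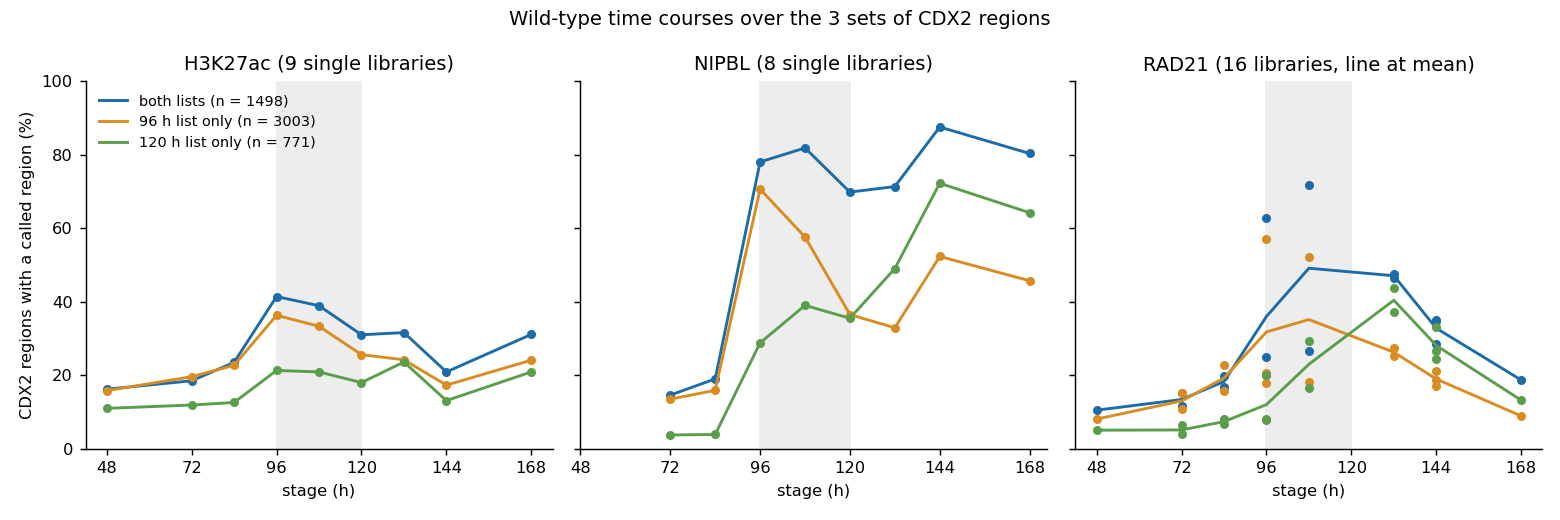
The percentage of CDX2 regions that overlap a called region is plotted against stage in hours for wt H3K27ac, NIPBL and RAD21, with 1 point per library and lines at the mean of each stage, and the grey band spans 96 h to 120 h. The NIPBL share of the shared regions is 14.6% at 72 h and 78.0% at 96 h, and at 120 h it is 69.8% against 36.5% of the regions of the 96 h list only.

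Replicate libraries allowed 96 h and 120 h to be compared directly. In wt, the 3 libraries of 96 h covered 41.4%, 44.9% and 41.5% of the shared regions (42.6% ± 2.01, SD, n = 3) and the 3 of 120 h covered 31%, 43% and 40.7% (38.2% ± 6.33, SD, n = 3). The single library of the time course was the lowest at 120 h, and the ranges of the 2 stages overlapped. Del(CBS1) had 47.0% and 46.3% at 96 h and 47.5% and 45.9% at 120 h. Del(CBS1-2) had 49.9% and 51.5% at 96 h and 54.3% and 53.2% at 120 h, and here both libraries of 120 h lay above both of 96 h. Averaged over the 3 genotypes, the share at 120 h minus that at 96 h was -0.426 percentage points (exact permutation of stages within genotype, two-sided p = 0.856, smallest possible 0.00278, 14 libraries). That value changed sign or size with the way H3K27ac was counted. It was 4.78 points for called regions over the summit (exact permutation p = 0.0111). With every list cut to the same length it was -4.32 points (exact permutation p = 0.00278).

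The regions of the 96 h list only were read in the same libraries. In each of the 3 genotypes every library of 120 h had a lower H3K27ac share than every library of 96 h, and the wt mean was 36.9% ± 1.98 at 96 h and 28.3% ± 2.57 at 120 h (SD, n = 3). The change in the shared regions exceeded the change in the regions of the 96 h list only by 4.8 points (exact permutation, two-sided p = 0.00833, 14 libraries). With the same window of 500 bases to each side of every summit it was 11.8 points (exact permutation p = 0.00278), and without the 94 regions 4.88. In the wt libraries alone it was 4.23 points (exact permutation p = 0.3, n = 6).

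**Figure D3:**
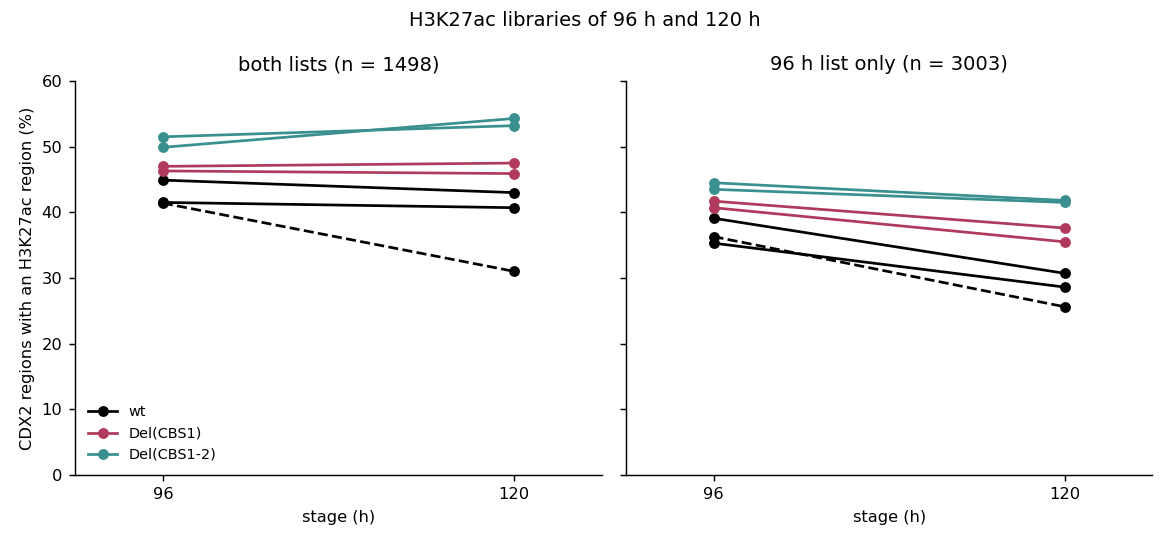
The percentage of CDX2 regions with an H3K27ac region is shown at 96 h and 120 h for the shared regions (left) and for the regions of the 96 h list only (right), with 1 point per library. Lines join libraries with the same replicate number and the dashed line joins the unnumbered wt libraries. In Del(CBS1-2) the shared regions lie at 49.9% and 51.5% at 96 h and at 54.3% and 53.2% at 120 h, while every line falls on the right.

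H3K27ac flanked the CDX2 summits at 96 h. In the wt time course, 15.5% of the shared summits themselves lay inside a called H3K27ac region at 96 h, and 400 bp away 54.8% of positions did. The mean over 200 to 500 bp exceeded the value at the summit by 33.3 points, against 21.4 points in the regions of the 96 h list only and 12.9 points in those of the 120 h list only. At 48 h and 72 h the same difference was -0.0988 and 2.2 points in the shared regions, so that there was little or no dip at these 2 stages. At 84 h it was 12 points, and the stages 120 h and 168 h gave 8.69 and 11.6 points. Each of these differences rests on 1 library. In the numbered wt libraries, 9.55% and 8.54% of the shared summits lay inside a called region at 96 h, and 12.9% and 11.5% at 120 h. Within 500 bp of the summit, 25.8% of the shared regions had an H3K27ac region at 72 h. The 3 wt libraries of 96 h gave 72.8%, 81.4% and 77.8%, and those of 120 h gave 48.4% in the time course and 75.8% and 74.4% in the numbered libraries, so that the ranges of the 2 stages overlapped and the low value of 120 h was that of 1 library. In the same window the regions of the 96 h list only had 30.5% at 72 h, 64.8%, 77.0% and 71.9% at 96 h, and 36.9%, 55.6% and 53.4% at 120 h.

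**Figure D4:**
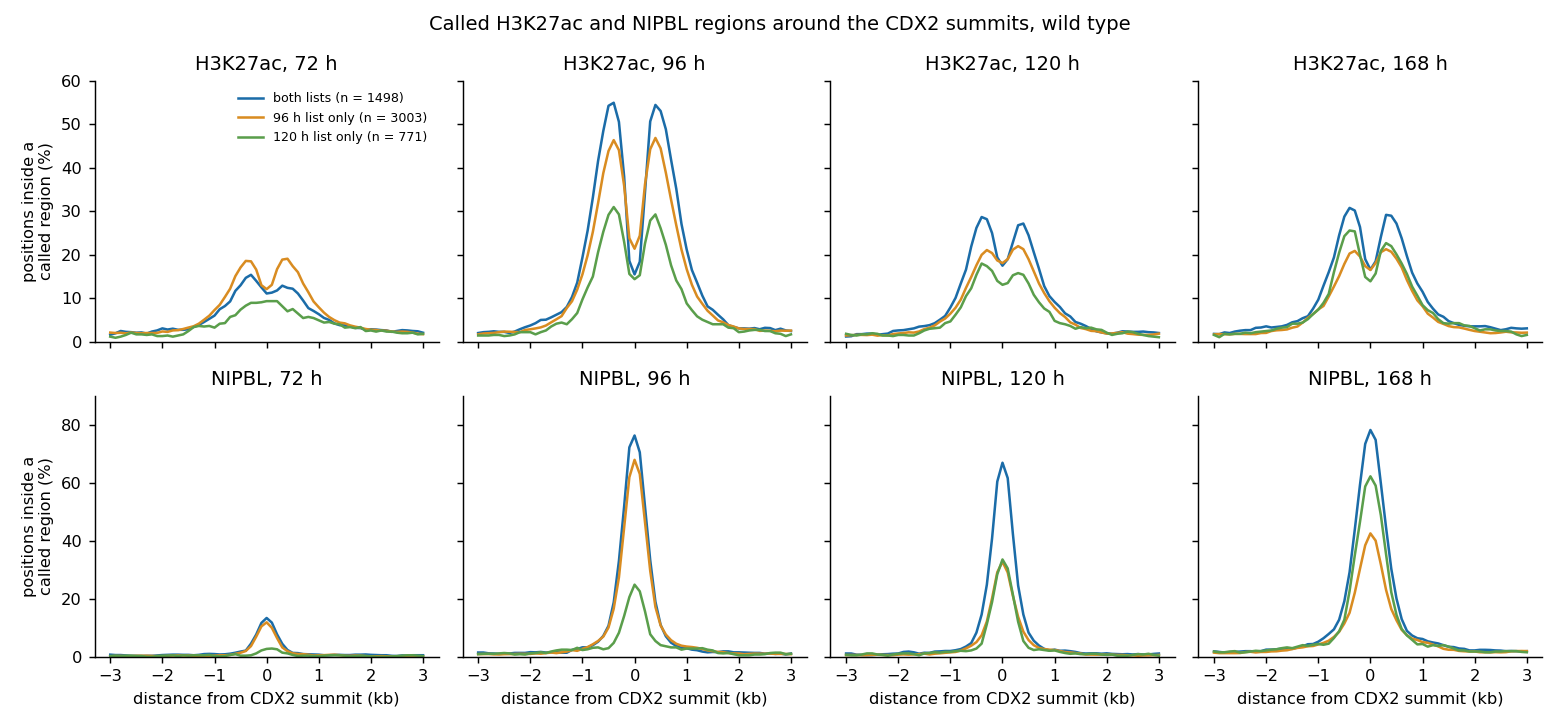
The percentage of positions inside a called H3K27ac (top) or NIPBL (bottom) region is plotted against the distance from the CDX2 summit in kb, for wt libraries of 72 h, 96 h, 120 h and 168 h. H3K27ac at 96 h is 15.5% at the shared summits and 54.8% at 400 bp, whereas NIPBL is highest at the summit, at 76.4%.

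By overlap with the CDX2 region itself, most shared regions had no called H3K27ac region at 48 h and 72 h. A minority of these had one at 96 h or 120 h. Within 500 bp of the summit more shared regions had H3K27ac, 25.8% at 72 h and 72.8%, 81.4% and 77.8% at 96 h. The change from none to called was not counted in that window. Here a region was counted at 96 h or 120 h when at least 2 of the 3 wt libraries of that stage had a called region over it, so that the counts differ from those of the single libraries of the time course, whereas 48 h and 72 h had 1 library each. Of the 1498, 337 (22.5%) overlapped an H3K27ac region at 48 h or 72 h, and 73.6% of these did so at 96 h and 70.0% at 120 h. Of the 1161 with none at 48 h and 72 h, 375 (32.3%) had one at 96 h and 329 (28.3%) at 120 h. Among these, 239 had it at both stages, 136 at 96 h only, 90 at 120 h only and 696 (59.9%) at neither. The regions of the 96 h list only with none at 48 h and 72 h had it in 24.4% at 96 h and 16.2% at 120 h. Of the regions with none at 48 h and 72 h that were called at 96 h, 63.7% were called at 120 h as well in the shared regions and 47.4% in the regions of the 96 h list only. In 327 shared regions (21.8%) none of the 21 H3K27ac lists had an overlapping called region, against 29.0% and 37.1% of the regions of the 96 h list only and the 120 h list only. Within 500 bp of the summit, 6.74% of the shared regions had none in any list, against 12.2% and 13.9%.

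Counted by overlap with the CDX2 region itself, NIPBL covered more of the shared regions from 96 h on than any other mark did in wt libraries of the same stage. At 72 h and 84 h its shares were below those of H3K27ac. Within 500 bp of the summit the order depended on the library. There NIPBL stood at 78.3% (96 h) and 70.5% (120 h), and H3K27ac at 72.8%, 81.4% and 77.8% (96 h) and 48.4%, 75.8% and 74.4% (120 h). By overlap, 14.6% and 19.0% of the shared regions had a NIPBL region at 72 h and 84 h, and 78.0% at 96 h, where the background over all CDX2 regions was 66.6%. The later shares were 81.8% (108 h), 69.8% (120 h, background 45.8%), 71.3% (132 h), 87.5% (144 h) and 80.3% (168 h). All stages from 96 h on therefore lay above both earlier stages. The lists of 72 h and 84 h were also the shortest, and with all NIPBL lists cut to 4888 regions the shares were 13.3% and 19.0% at the 2 early stages and 29.3% to 48.5% from 96 h on. Over the 8 stages the share had no relation with stage that passed the test (rho = 0.69, exact permutation p = 0.0694, adjusted over 3 relations 0.198, and r = 0.744, p = 0.0368, adjusted 0.11, n = 8). Without 72 h and 168 h, r was 0.667. Because the stages fell into these 2 groups, the relation was also tested within the 6 stages from 96 h, a choice made after seeing the data, and none was detected (rho = 0.257, exact permutation p = 0.658, and r = 0.237, exact permutation p = 0.643, n = 6).

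The regions of the 96 h list only started from similar NIPBL shares and then differed. Their shares were 13.5%, 15.9% and 70.6% at 72 h, 84 h and 96 h, followed by 57.6% (108 h), 36.5% (120 h), 32.9% (132 h), 52.3% (144 h) and 45.7% (168 h). The shared regions exceeded them by 22.2 points on average (SD 15.8, 8 of 8 stages, exact sign-flip permutation p = 0.00781, adjusted 0.0117), and without the 94 regions by 20.8 points (adjusted exact permutation p = 0.0469). The gap was 1.13 points (72 h), 7.41 (96 h), 33.3 (120 h) and 34.6 (168 h). Its rho with stage was 0.905 (exact permutation p = 0.00456, adjusted 0.0137, and r = 0.886, p = 0.003, n = 8), but it was 0.619 with lists cut to the same length (adjusted exact permutation p = 0.115) and 0.771 within the 6 stages from 96 h (exact permutation p = 0.103). The regions of the 120 h list only had NIPBL in 3.76% (72 h), 28.8% (96 h), 35.5% (120 h) and 72.2% (144 h). They lay below the shared regions by 25.7 points on average (SD 14.5, 8 of 8 stages, exact permutation p = 0.00781, adjusted 0.0117).

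NIPBL was also read within groups of similar CDX2 fold enrichment, as a description, since fold enrichment belongs to the calls that chose the regions. The shared regions were put in 5 groups of equal size by their 96 h fold enrichment, and the regions of the 96 h list only were sorted by the same limits. In the highest group (9.04 to 38.9) NIPBL covered 85.0% of the shared regions and 45.7% of the regions of the 96 h list only at 120 h. In the lowest group (1.79 to 4.86) it covered 57.9% and 35.2%. At 72 h the corresponding values were 22.3% and 21.7%, and 15.1% and 13.0%. In each of the 5 groups the shared regions had the higher share at 120 h. At 96 h they had the higher share in 3 of the 5 groups, and the lower one in the second highest (84.7% against 92.2%) and in the lowest (57.5% against 65.8%). Within a group the sets can still differ in fold enrichment.

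Counted by region, NIPBL was retained in many shared regions. In 873 (58.3%) NIPBL was called at 96 h and at neither 72 h nor 84 h, and 752 (50.2%) had it in all 6 lists from 96 h on. The latter held for 19.7% of the regions of the 96 h list only and 11.7% of those of the 120 h list only. No NIPBL region in these 6 lists was found in 45 shared regions (3.0%), against 14.0% and 20.5%. Of the shared regions with NIPBL at 96 h, 77.9% also had it at 120 h, and of the regions of the 96 h list only 45.5%.

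From 96 h on, RAD21 covered fewer shared regions than NIPBL in the wt libraries of the same stage, and at 72 h and 84 h the first RAD21 library covered slightly more. The wt libraries gave 10.5% (48 h), 15.2% and 11.6% (72 h), and 19.8% and 16.8% (84 h). At 96 h the 3 libraries gave 62.8%, 20.2% and 25%, and the 2 of 108 h gave 71.6% and 26.6%, so that the spread between libraries of these 2 stages was wider than the differences between most stages. The 2 libraries of 132 h gave 47.6% and 46.5%, and the background in the first of these was 35.5%. Later values were 34.8%, 35% and 28.5% (144 h) and 18.7% (168 h). Del(CBS1) had 32.3% and 31.4% at 96 h and Del(CBS1-5) 33.4% at 120 h. The means by stage had no relation with stage that passed the test (rho = 0.595, exact permutation p = 0.132, adjusted 0.198, and r = 0.424, p = 0.288, n = 8), and without the 2 libraries that stood apart rho was 0.738 (adjusted exact permutation p = 0.104). The libraries carry either of 2 label fields, cell type or cell line, for the same entry. Within the 7 stages of the cell line field rho was 0.964 (adjusted exact permutation p = 0.00833) and within the 7 of the cell type field 0.214 (adjusted exact permutation p = 0.662). The cell line field included 48 h and not 168 h, and the cell type field 168 h and not 48 h. The label field and the range of stages thus cannot be told apart in these 2 values.

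The shared regions had RAD21 more often than the other sets. They exceeded the regions of the 96 h list only by 8.05 points over the 8 stages (SD 7.72, 7 of 8 stages, exact sign-flip permutation p = 0.0234, adjusted 0.0234), and by 7.26 points without the 2 libraries that stood apart (adjusted exact permutation p = 0.0234). Without the 94 regions the difference was 5.29 points and no longer passed (adjusted exact permutation p = 0.159). Within the cell type field it was 9.48 points (adjusted exact permutation p = 0.0625) and within the cell line field 6.91 (adjusted exact permutation p = 0.0156). They exceeded the regions of the 120 h list only by 11.4 points (SD 8.63, 8 of 8 stages, exact permutation p = 0.00781, adjusted 0.0117), and by 8.25 points without the same 2 libraries. The gap to the regions of the 96 h list only had no relation with stage that passed the test (rho = 0.69, exact permutation p = 0.0694, adjusted 0.0694, and r = 0.692, p = 0.0609, n = 8). Without 48 h and 168 h, r was 0.871.

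Few shared regions were CTCF sites. CTCF covered 7.61% to 9.41% of them in the 7 lists and 14.8% in any list, against 13.0% and 10.5% of the other 2 sets. In the wt list of 72 h the share was 9.08%, with a background of 8.21%. The 221 shared regions with CTCF had NIPBL in 48.9% at 72 h and 82.8% at 96 h, and the 1277 without CTCF in 8.69% and 77.2%. In the 154 with CTCF that were not set apart, NIPBL was at 34.4% at 72 h and 87.7% at 96 h. For RAD21 at 132 h, the regions without CTCF were covered in 43.2% and 38.8% by the 2 libraries, against 2.19% at 48 h and 10.1% at 168 h. With CTCF, RAD21 was at 58.8% at 48 h, 72.9% and 90.5% at 132 h and 68.3% at 168 h. Both groups thus had lower values at 48 h and 168 h than at 132 h, and those without CTCF were below those with it in each of these libraries.

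The 2 remaining marks were rare. PolII covered 12.4% to 16.8% of the shared regions in its 8 lists, with the highest values at 72 h (16.7%) and 144 h (16.8%), where the backgrounds over all CDX2 regions were 16.7% and 13.6%. The regions of the 96 h list only had 10.1% to 19.4%, with 19.4% at 72 h, and those of the 120 h list only 4.02% to 8.69%. H3K27me3, the Polycomb mark, was called in at least 50% of its 8 lists in 53 shared regions, and all but 4 of these were among the 94 regions described above. Those 4 were 0.285% of the other shared regions, whereas 9.74% of the remaining regions of the 120 h list only carried it in this way.

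Shared regions lay mostly away from promoters. Within 1 kb of a protein-coding start lay 90 of them (6.01%), against 10.5% and 9.99% of the other 2 sets, and within 50 kb 56.0%. Introns held 41.1%, intergenic sequence 51.5% and exons 1.4%, and the median distance to a start was 40.6 kb, against 33.6 kb and 36.0 kb. At 96 h, 39.8% of the distal shared regions had H3K27ac and 31.8% of the distal regions of the 96 h list only. Near starts the order was the other way, at 65.6% and 75.2%. At 120 h the distal shares were 29.1% and 20.8%.

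Of 21829 protein-coding genes, 1330 (6.09%) had a shared region within 50 kb of a start. Among 44 Hox, Evx and Cdx genes this held for 37 (84.1%), many of which share the same regions because the clusters are compact. Among 23 genes of axial progenitors and the tail bud it held for 13, including Cyp26a1, an enzyme that degrades retinoic acid, and the transcription factor genes Nkx1-2 and Sp8, each with 2 shared regions, and Fgf8 and T with 1 each. Among 25 genes of presomitic mesoderm and somites it held for 8, among them Hes1, a Notch target with 2. The counts were 7 of 16 for FGF signaling, with 2 regions at the phosphatase gene Dusp6, 5 of 13 for retinoic acid, 4 of 15 for Wnt targets and 3 of 14 for pluripotency, with 2 at Esrrb. The regions of the 96 h list only, a larger set, lay as near to 3168 genes (14.5%). They did so for 42 of the 44 Hox, Evx and Cdx genes, 18 of the 23 axial progenitor genes and 11 of the 25 somite genes. For FGF, Wnt targets and pluripotency they reached 10, 8 and 4 genes, also more than the shared regions, and for retinoic acid 3, which was fewer. Shared regions lay near few genes of the short lists of other tissues, the trophoblast and the intestine included, where Cdx2 is known to act as well. None of 12 intestinal genes had a shared region within 50 kb, 1 of 11 trophoblast genes did (Hand1), 1 of 15 cardiac, vascular and endoderm genes (Gata4) and 2 of 13 neural genes (Olig2 and Pax7). The last 3 shares, 9.09%, 6.67% and 15.4%, lay above the 6.09% of all genes, and the intestinal share lay below it. The regions of the 96 h list only reached 1, 4, 3 and 6 genes of these lists.

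By nearest start, the shared regions fell to 1174 genes, and 951 of these had exactly 1. A nearest start can be far away. Tenm4, which encodes a teneurin adhesion protein, was nearest to 10 shared regions, 3 regions of the 96 h list only and none of the 120 h list only. The shared regions lay 4.1 to 1090 kb from its start. NIPBL covered 1 (72 h), 9 (96 h), 7 (120 h) and 9 (168 h) of these 10, and H3K27ac none at 72 h and 4 at both 96 h and 120 h. Lrmda was nearest to 8, and Auts2, the planar polarity gene Prickle1 and Zfp703 to 7 each. Of the 7 at Zfp703, 5 had H3K27ac at 96 h and 1 at 120 h, and 6 had NIPBL at 96 h and 5 at 120 h. Tex14 and Zfp608 were nearest to 6 each, and Dhx35, Hes1 and Irx3 to 5 each, as was Rnf220, which followed them by symbol. Distances were 104 to 706 kb at Dhx35 and 74.5 to 264 kb at Irx3, against 0.669 to 44.0 kb at Tex14. The 6 at Tex14 had NIPBL in 5 already at 72 h and H3K27ac in none at 96 h.

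All 4 Hox clusters held shared regions. HoxA (chr6:52150590-52323378) had 9, with 4 regions of the 96 h list only and 1 of the 120 h list only. HoxB (chr11:96189316-96373256) had 8, HoxC (chr15:102916103-103041852) had 7 and HoxD (chr2:74647991-74770142) had 3, and each of these also had 1 region of the 120 h list only. The highest fold enrichment was at the start of Hoxc5, at 13.6 and 9.73 for 96 h and 120 h, with NIPBL in all 6 lists from 96 h and H3K27ac in 10 of 21 lists. Hoxb4 followed with a site 1.77 kb from its start at 11.4 and 9.01. No H3K27ac list had a called region that overlapped this site, although one lay nearby at 96 h. The shared regions at Hoxa4 and Hoxd4 had H3K27ac in 18 of 21 lists each and NIPBL in all 7 lists from 84 h, and the Hoxa4 region was in the 72 h CDX2 list as well. At Hoxd4 the fold enrichment was 9.48 at 96 h and 6.28 at 120 h. Among the Hox regions, 1 near the start of Hoxa7 (chr6:52221914-52222469) was called in all 7 CTCF and all 19 RAD21 lists.

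The Cdx genes differed from one another. A shared region 2.17 kb from the start of Cdx2 (fold enrichment 7.11 and 5.67) had NIPBL at 96 h and at no other stage, and H3K27ac in none of the 21 lists. A shared region in an intron of Cdx4, 4.62 kb from its start, had 6.96 and 5.76, with NIPBL in all 6 lists from 96 h and H3K27ac in 7 of 21 lists. Cdx1 had no shared region within 50 kb.

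**Figure D5:**
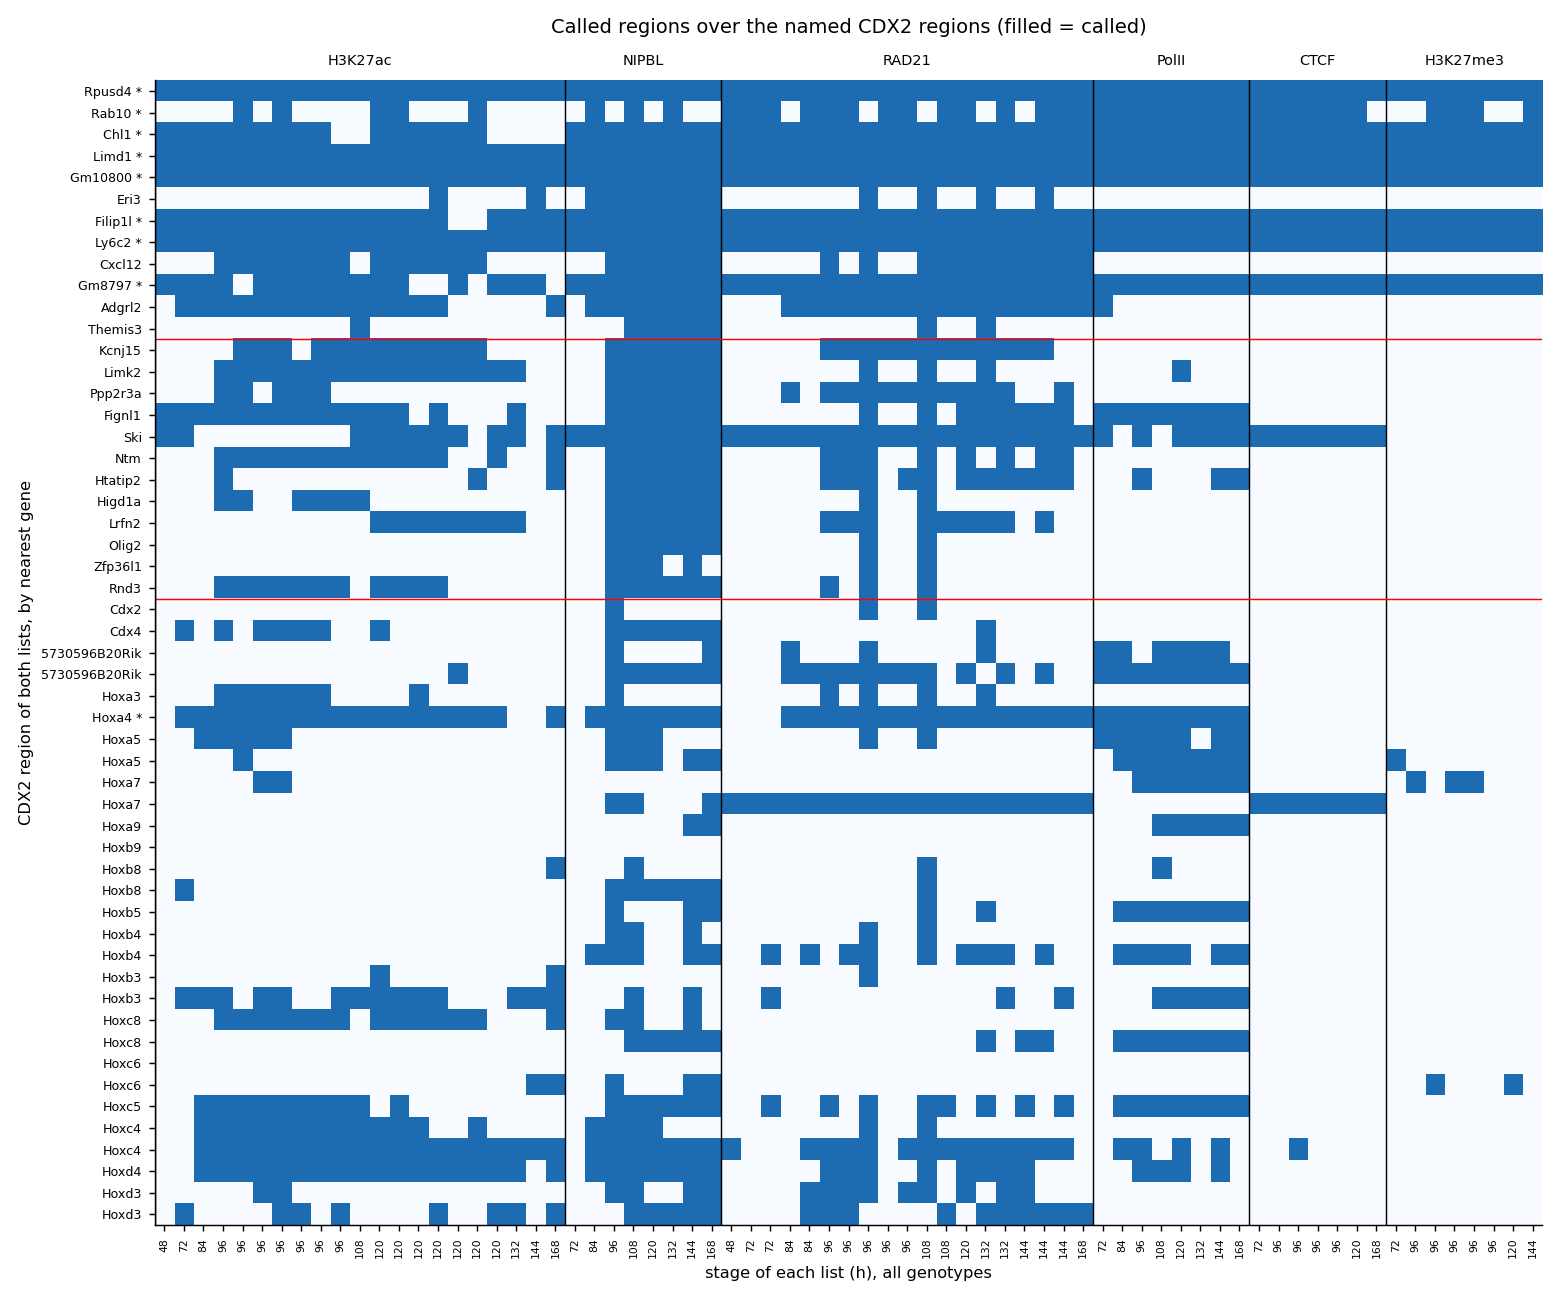
Each row is a named shared region, labelled by the nearest gene, each column 1 of the 71 lists ordered by mark and stage in hours, and a filled cell marks a called region. Stars mark regions in the 72 h CDX2 list or called in at least 50% of the CTCF and H3K27me3 lists, and red lines part the highest-ranked regions, the next 12 and the Hox and Cdx regions. The 9 starred regions are filled in 40 to 71 of the 71 lists. Of the other 44, 20 have NIPBL in all 6 lists from 96 h on, 15 of them in neither earlier list, and 4 have none from 96 h on.

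The highest-ranked regions outside the group called throughout had NIPBL in each list from 108 h on, with first calls at 3 different stages. The Eri3 intron had fold enrichments of 19.4 and 18.5, from 120 and 107 fragments at the summit, with NIPBL in 7 lists from 84 h and H3K27ac in 2 of 21. The Adgrl2 region had 17.6 and 16, NIPBL in 7 lists from 84 h, H3K27ac in 15 of 21 and RAD21 in 16 of 19. The Cxcl12 region had 18 and 17.9, NIPBL in the 6 lists from 96 h and H3K27ac in 13. The Themis3 region, whose window held no CDX core, had 16.2 and 17.6, NIPBL in the 5 lists from 108 h and H3K27ac in 1. None of these 4 was called in a CTCF list. The next 12 regions after removal of the 94 were named after their values were seen. They included sites at Limk2, Ntm, Ski, Rnd3 and 49.4 kb from Olig2, and had fold enrichments of 13.2 to 17.2 at 96 h. Of the 12, 10 had NIPBL in all 6 lists from 96 h and in neither earlier list. Ski, with CTCF in all 7 lists, had NIPBL in all 8, and Zfp36l1 had it in 4.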

How the data were processed

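Stembryos were profiled by ChIP-seq (CDX2, H3K27ac, H3K27me3) or by ChIPmentation with Tn5 (CTCF, RAD21, NIPBL, PolII). Per the submitters' processing notes, the authors trimmed reads with cutadapt 1.16, mapped them to mm10 with Bowtie2 2.3.4.1, filtered them with SAMtools 1.8 and called peaks per library with MACS2 2.1.1.20160309. No input library was given to the caller according to the study's methods, so the background is local and is estimated from the same library. The authors deposited peak lists with the fold enrichment of each summit as a ratio, and with its −log10 p-value and −log10 q-value, whose lowest value was 1.3. Read depth is not in the lists. The number of fragments at a summit was solved from fold enrichment and p for named regions, which succeeded for 200 of the first 200 shared regions.

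Here, summits of the same region were merged, and 74 of 80 lists (82 samples) were used. The lists of pSer2 PolII and of the CTCF insertion line were not used here. A CDX2 region was counted as covered when a called region overlapped it by at least 1 base. Groups came from the sample labels. The members, gene lists, motifs and tests were chosen with earlier results of these data known, and the group of regions called throughout, the widened regions and the common window, the difference of changes, the relation of the gaps with stage, the 6 NIPBL stages from 96 h and the removal of 2 RAD21 libraries were added after seeing these lists. Stages were compared by exact permutation within genotype, sets of regions by exact sign-flip permutation over stages, and stage relations by exact permutation, two-sided, with Benjamini-Hochberg adjustment within each family at 0.05. Replicates are separate pools as far as the labels say, and the p-values of the comparison of 96 h with 120 h cover the spread between them. The p-values of the tests over stages cover the spread between stages and not between replicate pools. In those tests H3K27ac and NIPBL had 1 library per stage, and RAD21 libraries were averaged by stage. Named regions were the 12 with the highest CDX2 fold enrichment by the worse of their ranks at 96 h and 120 h (ranks up to 19, the next 22), those within the Hox clusters or 50 kb of a Cdx gene, the 10 genes nearest to most of them (ties by symbol), and genes of the fixed lists with a region within 50 kb. Starts came from GENCODE vM21 and sequence from GRCm38.p6 of RefSeq. Python 3.11.15, NumPy 2.4.6, pandas 2.3.3, SciPy 1.17.1 and pysam 0.24.0 were used, and the overlap and test code was tested on simulated data. Alternatives were 50% coverage, q-value, list length, summit, window, distance, left-out libraries and a replicate block.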

Additional observations from a re-analysis of the deposited data

Results flagged for a closer look

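The H3K27ac share of the shared regions moved in opposite directions in the numbered libraries of 2 genotypes. From 96 h to 120 h it changed by 4.41 and 1.74 percentage points in Del(CBS1-2) (mean 3.08) and by -1.94 and -0.868 points in wt (mean -1.4), a difference of 4.48 points. It drew attention because the changes between same-numbered libraries were all upward in one genotype and all downward in the other, where the number is only a name, and the difference was not tested, since 2 pairs against 2 cannot give a two-sided exact permutation p under 0.333. The Del(CBS1-2) lists were longer at 120 h (62965 and 61894 regions) than at 96 h (55940 and 56828), and the wt lists went from 59284 to 53644 and from 50882 to 51590. With all lists cut to the same length the changes were -0.134 and -2.94 points in Del(CBS1-2) and -5.34 and -3.2 points in wt. The H3K27ac libraries of Del(CBS1-2) carry the cell line label field and those of wt the cell type field, so genotype and label field cannot be told apart here. No group had more than 3 libraries, so single libraries were not screened as outliers.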

How the results depend on the processing

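Of 293 alternative values of 17 results, 259 kept their verdict. For a test this meant the same side of the threshold, and the same direction only where either value passed it. Where neither passed, the sign could differ, as for the H3K27ac change of -0.426 points, which was 0.0323 with reciprocal overlap. For a share or count without a test it meant a value near the main one. The H3K27ac results were the most sensitive. The change from 96 h to 120 h turned to 4.68 points with 50% of the region covered and 4.78 at the summit, and passed the test at -4.22 with a −log10 q of at least 5 and -4.32 at equal list length. The H3K27ac difference to the regions of the 96 h list only turned to -0.731 and -0.924 with 50% coverage and at the summit, and was 1.64 without the regions called throughout. Its rank correlation with stage was no longer called at 0.283 (50% coverage), 0.617 (q), 0.583 (equal length) and 0.5 (summit), and ranged from 0.667 to 0.929 with 1 stage left out. The difference of changes was 4.23 in wt alone. The NIPBL correlation was 0.619 at equal length and 0.771 over 6 stages. The RAD21 correlation of the gap, 0.69 and not past the test (adjusted exact permutation p = 0.0694), passed at 0.738 with reciprocal overlap, distal regions, widened regions or the common window, at 0.762 with stricter CDX2 peaks, at 0.857 within the cell line field and at 0.81 without the 2 libraries that stood apart, and ranged from 0.536 to 0.75 with 1 stage left out. The RAD21 share with stage was 0.964 in the cell line field, which had no library of 168 h. The RAD21 difference was 5.29 without the regions called throughout, 9.48 in the cell type field and, to the 120 h list only, 8.16 with stricter CDX2 peaks. A window of 100 bases gave a motif share of 38.9%, distances of 20 and 100 kb gave 609 and 2450 genes, and 2.5 kb gave 11.1% near starts. The causes were not tested, except that a wider window or distance holds more by construction. Of 128 values with a library or stage left out, 123 kept their verdict. The replicate numbers of 96 h and 120 h were not taken as pairs, since the labels give no shared origin and rep1 minus rep2 over the regions had correlations of -0.000741 to 0.0164 between the 2 stages in the 3 genotypes. The deviations of the same shares from their group means had r = 0.625 over 6 pairs, which are mirror images within a genotype. With the replicate block, the change was 0.567 points (exact permutation p = 0.656) and the difference of changes 5.45 (exact permutation p = 0.0312), over the 6 numbered pairs. The lists hold no depth, so a region that was not called may lie below detection.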
